A study of Arabidopsis thaliana with 48 samples.

Results

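Transcript levels of 10 genes of salicylic acid signalling were compared between 12-day-old acc1-5 seedlings and wild-type (WT) seedlings of Arabidopsis thaliana. The genes were chosen by locus from a table of 33553 genes for their roles in the pathway: 5 upstream genes (ICS1, EDS1, PAD4, SAG101 and NPR1) and 5 output genes (NIMIN1, PR1, PR2, PR5 and PCC1). The choice was made with earlier results of these data known. All 10 were listed, were tested by the authors' program and had a mean level of at least 1 FPKM (fragments per kilobase of transcript, scaled to the mapped fragments of a library).

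Salicylic acid is a plant hormone of defence against pathogens that feed on living tissue. ICS1 makes its precursor isochorismate in the plastid, EDS1 forms complexes with PAD4 or SAG101 that relay signals from intracellular immune receptors, and NPR1 is the co-activator that responds to the hormone. With TGA transcription factors, NPR1 activates the pathogenesis-related (PR) genes, whose secreted products mark the response in leaves, and NIMIN proteins bind NPR1 and restrain it.

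Both genotypes are in the Col-0 ecotype, and acc1-5 is an allele of ACC1, the gene of the cytosolic acetyl-CoA carboxylase. Of 48 samples in the series, 3 are RNA libraries of acc1-5 and 3 of WT, made from seedlings grown on MS plates in days of 16 h light and 8 h darkness. The labels repeat 1 treatment text for all samples, a spray with 20 µM estradiol or its solvent for 24 h, so whether the RNA seedlings were sprayed is not clear, and they do not say whether the libraries of a genotype came from separately grown seedlings. For each genotype the tables hold 1 level and its confidence bounds, both set by the authors, so no spread between libraries can be given, and depth is unknown.

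The transcript with the highest FPKM over both genotypes stands for its gene, and a gene is called higher or lower where the authors' q-value is under 0.05. Of 20509 tested genes, 9.04% were called lower and 10.9% higher in acc1-5, 19.9% in either direction. ACC1 had 33.4 FPKM in acc1-5 and 33.1 FPKM in WT, which does not check the genotype, since the labels do not say whether the allele alters its transcript. Markers of root and leaf were both present, and their summed levels moved apart. The 6 root hair markers summed to 107 FPKM in acc1-5 and 12.1 FPKM in WT, with 6 called higher. The 11 root endodermis markers summed to 76.0 FPKM in acc1-5 and 19.4 FPKM in WT, with 9 of 10 tested called higher. The 10 leaf mesophyll markers summed to 19521 FPKM in acc1-5 and 35569 FPKM in WT, and 10 of 10 had a negative log2 fold change. Of these, 2 were called lower and 8 were not called. The leaf sums include levels with wide bounds. RBCS1A, the highest of the list in WT, had 9403 FPKM (0.165 to 28301) there and 5028 FPKM (245 to 9816.5) in acc1-5. No marker of these lists was at 0 in either genotype. In bulk samples of seedlings, fewer cells of a type and less RNA per cell cannot be told apart, and the part of these marker shifts in the results below was not tested.

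All 10 genes had a lower level in acc1-5 than in WT, against 50.7% of all tested genes with a negative log2 fold change. The authors' test called 5 of them lower and 0 higher (6 and 0 at an unadjusted p under 0.05), and 4 of the 5 calls were output genes. The share of all tested genes called lower was 9.04%. At an unadjusted p under 0.05 in the authors' test, 2992 of 20509 tested genes were lower and 3223 higher. With q under 0.01, 3 members were called lower (EDS1, PR2 and PCC1), beside 5.7% of all tested genes, and 2 were lower with bounds that do not overlap (PR2 and PCC1), beside 1.63%. The upstream genes had a median log2 fold change of -0.35 (1 of 5 called lower) and the output genes a median of -1.56 (4 of 5 called lower), beside -0.01 for all tested genes. The difference between these medians is a description, since the members are not replicates. The output median is the value of NIMIN1, whose bounds overlap. The groups also overlap, since PR1 (-0.48) and PR5 (-0.56) fell less than the upstream gene EDS1 (-0.67).

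**Figure D1:**
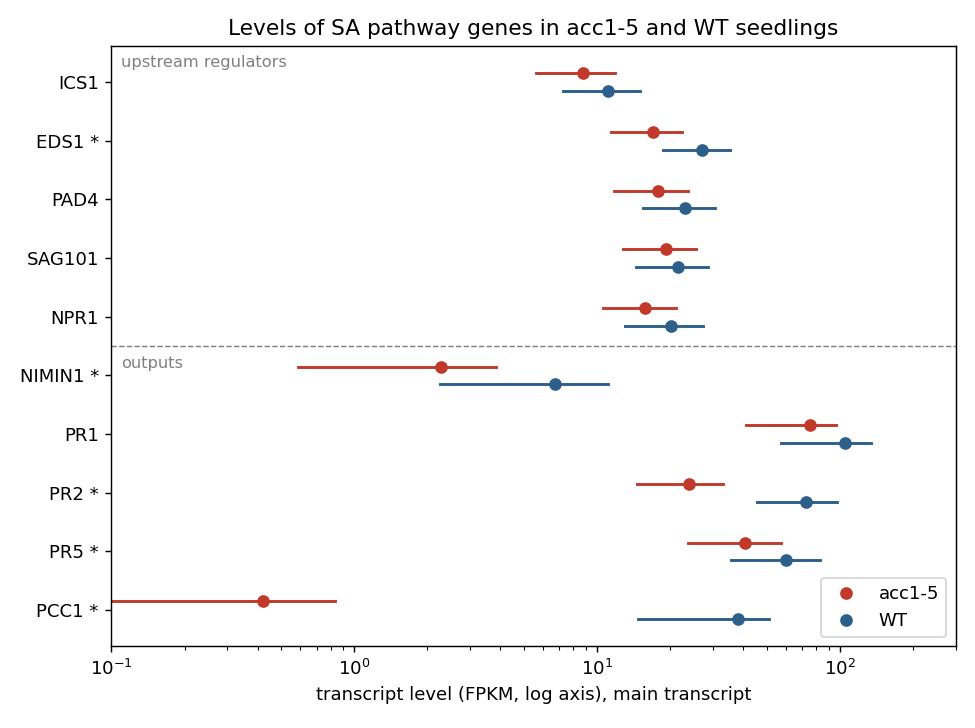
Level of the main transcript of each gene (FPKM, log axis) in acc1-5 (red) and WT (blue); bars are the authors' confidence bounds, asterisks mark genes called lower, and the acc1-5 bar of PCC1 reaches 0 and is cut at the axis edge of 0.1. The bounds of the genotypes do not overlap for PR2 and PCC1 and overlap for the other 8 genes.

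Among the upstream genes, EDS1 passed the test. EDS1 (AT3G48090, chromosome 3, 17755374 to 17757780 on TAIR10), the lipase-like partner of PAD4 and SAG101, had 16.9 FPKM (bounds 11.4 to 22.5) in acc1-5, against 27.03 FPKM (18.8 to 35.3) in WT. Its level was 1.595-fold lower in acc1-5, with q = 0.00612 in the authors' deposited table, although the bounds overlap. A near-identical tandem copy of EDS1 is known in Col-0, so how reads were divided between copies is uncertain. The adjacent locus, AT3G48080, was also called lower, with 2.06 FPKM (1.01 to 3.11) in acc1-5 and 6.96 FPKM (4.36 to 9.53) in WT. Both loci together had 19.1 FPKM in acc1-5 and 34.2 FPKM in WT, a log2 fold change of -0.84 for the sum.

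The partners of EDS1 did not pass. PAD4 (AT3G52430, chromosome 3, 19431371 to 19434403) had 17.9 FPKM (11.8 to 23.8) in acc1-5, against 23.1 FPKM (15.4 to 30.7) in WT. SAG101 (AT5G14930, chromosome 5, 4828640 to 4830955) had 19.3 FPKM (12.8 to 25.7) in acc1-5, against 21.6 FPKM (14.5 to 28.7) in WT. In the authors' deposited table their q-values were 0.209 and 0.742. SAG101 was listed with 3 transcripts, and a shorter one of 620 bases had 4.71 FPKM (0 to 11.5) in acc1-5 and 7.52 FPKM (0 to 16.0) in WT. Summed over its transcripts, SAG101 had 24.2 FPKM in acc1-5 and 29.3 FPKM in WT.

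ICS1, the enzyme of the first committed step, and NPR1 did not pass either. ICS1 (AT1G74710, chromosome 1, 28070295 to 28074148) had 8.75 FPKM (5.59 to 11.9) in acc1-5, against 11.1 FPKM (7.24 to 15.03) in WT. NPR1 (AT1G64280, chromosome 1, 23850572 to 23855566) had 15.9 FPKM (10.6 to 21.1) in acc1-5, against 20.2 FPKM (13.0 to 27.4) in WT. The authors' deposited table gives q = 0.338 for ICS1 and q = 0.303 for NPR1. The NPR1 locus overlaps AT1G64270, listed at 1.84 FPKM in acc1-5 and 3.52 FPKM in WT, and whether counting used strand is not given in the sources used here.

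These 4 uncalled upstream genes are not shown to be equal between the genotypes. Set at their extremes, the bounds allow log2 fold changes from -1.43 to 0.72 for ICS1, -1.38 to 0.62 for PAD4, -1.16 to 0.83 for SAG101 and -1.37 to 0.70 for NPR1.

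The output genes differed widely in the size of their change, and PR1 did not pass. PR1 (AT2G14610, chromosome 2, 6241704 to 6242463), a secreted protein used as the standard marker of the salicylic acid response, had 75.3 FPKM (41.3 to 96.2) in acc1-5, against 105 FPKM (57.5 to 135) in WT. It was the highest of the 10 genes in both genotypes and was not called, with p = 0.0111 and q = 0.0633 in the authors' deposited table. The extremes of its bounds allow log2 fold changes from -1.71 to 0.74.

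PR2 and PR5 were called lower. PR2 (AT3G57260, chromosome 3, 21188517 to 21189859), a beta-1,3-glucanase that cuts fungal cell walls, had 23.9 FPKM (14.6 to 32.9) in acc1-5, against 72.4 FPKM (45.5 to 97.6) in WT. This was a 3.04-fold lower level with bounds that do not overlap. The value q = 0.000746 in the authors' deposited table belongs to the smallest p-value in that table. Other genes share that p-value, ACD6 and WRKY70 among them. PR5 (AT1G75040, chromosome 1, 28177703 to 28178940), a thaumatin-like protein, had 40.6 FPKM (23.8 to 57.4) in acc1-5, against 60.0 FPKM (35.6 to 83.05) in WT. Its level was 1.48-fold lower, with overlapping bounds and q = 0.0290 in the authors' deposited table. PR1 stood at 3.16 times the level of PR2 in acc1-5 and at 1.45 times in WT, a ratio that was not tested.

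NIMIN1 and PCC1 had the lowest levels in acc1-5. NIMIN1 (AT1G02450, chromosome 1, 497976 to 498516), whose product binds NPR1, had 2.29 FPKM (0.586 to 3.85) in acc1-5, against 6.75 FPKM (2.26 to 11.1) in WT. The fall was 2.95-fold with overlapping bounds, and q = 0.01001 in the authors' deposited table lay just above the stricter threshold of 0.01. PCC1 (AT3G22231, chromosome 3, 7845823 to 7846605), a small gene named for its control by pathogens and the circadian clock, had 0.422 FPKM (0 to 0.831) in acc1-5, against 38.2 FPKM (14.7 to 51.1) in WT. The ratio of 90.5-fold rests on a level near 0 in acc1-5, and with 1 FPKM added to both levels the log2 fold change was -4.78 in place of -6.50. A drop of this kind was rare in the table. Of 11574 tested genes with at least 10 FPKM in WT, 7 were listed under 1 FPKM in acc1-5, and 5 of the 7 were called. PCC1 is itself among the 7 and the 5, and these cut-offs were chosen with its levels in view.

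The order of levels changed mainly through PCC1. In acc1-5 it ran PR1, PR5, PR2, SAG101, PAD4, EDS1, NPR1, ICS1, NIMIN1 and PCC1, and neighbours in that order had overlapping bounds except ICS1 and NIMIN1. In WT it ran PR1, PR2, PR5, PCC1, EDS1, PAD4, SAG101, NPR1, ICS1 and NIMIN1, with overlapping bounds between all neighbours. Summed, the 5 output genes had 142 FPKM in acc1-5 and 282 FPKM in WT, and the 5 upstream genes 78.7 FPKM in acc1-5 and 103 FPKM in WT. Among the log2 fold changes of all tested genes ranked from the lowest, PCC1 lay in the lowest 0.146%, PR2 in the lowest 1.68% and NIMIN1 in the lowest 1.79%. EDS1 lay at 10.3%, PR5 at 13.7% and PR1 at 16.6%, while PAD4, NPR1, ICS1 and SAG101 lay between 21.4% and 35.3%.

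**Figure D2:**
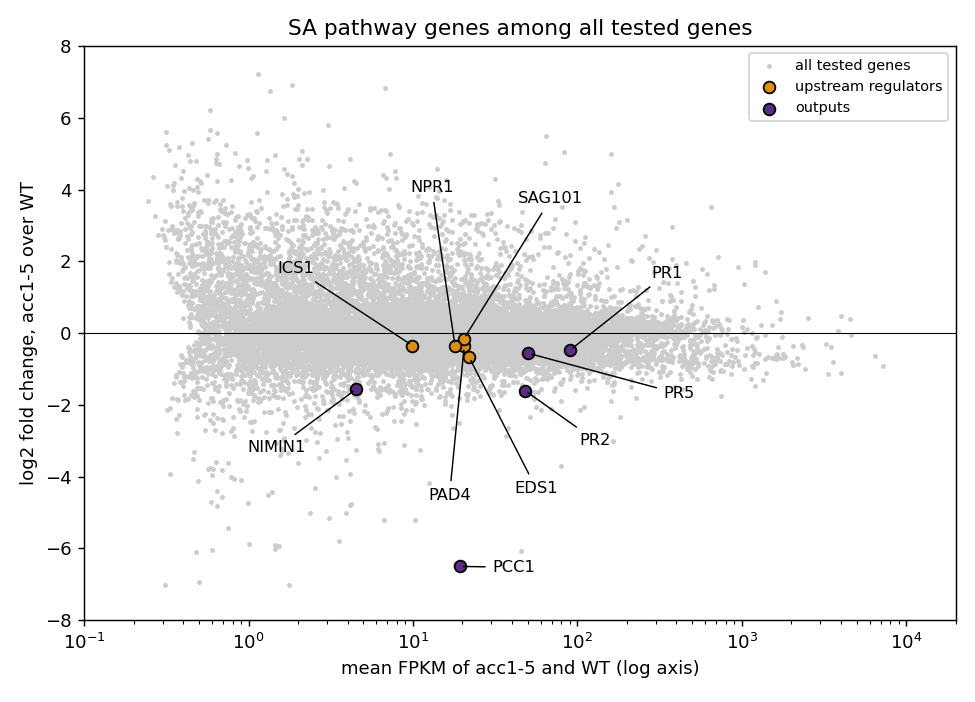
Log2 fold change of acc1-5 over WT against the mean FPKM of both genotypes (log axis) for tested genes with a finite fold change (grey), upstream genes (orange) and output genes (purple); 12 of 20459 genes lie beyond the plotted range. PCC1 at -6.50 lies at the lower edge of the genes of its level, PR2 and NIMIN1 stand below most genes of their level, and the upstream genes lie inside the bulk.

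Paralogs and adjacent genes of the members did not all follow them. PRB1, the basic relative of PR1, had 12.7 FPKM (5.52 to 18.1) in acc1-5 and 20.9 FPKM (9.98 to 27.4) in WT, which was not called (q = 0.0540 in the authors' deposited table). PR-1-LIKE, another relative, moved the other way and was called higher, with 10.1 FPKM (4.44 to 14.98) in acc1-5 and 1.29 FPKM (0.321 to 2.25) in WT. Beside PR2, the glucanase gene BG3 had 7.58 FPKM (4.2 to 10.9) in acc1-5 and 11.3 FPKM (6.37 to 16.0) in WT and was not called, and BG1 was under 0.2 FPKM in both and not tested. Beside PR5, the thaumatin-like gene TLP-3 had 1.67 FPKM in acc1-5 and 1.78 FPKM in WT and was not called, and AT1G75050 had 0.0799 FPKM in acc1-5 and 0.206 FPKM in WT and was not tested.

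The PCC1 region held a second gene that was near 0 in acc1-5. AT3G22235 was listed with 2 transcripts, at 1.34 FPKM (0 to 2.62) and 0.412 FPKM (0 to 0.879) in acc1-5, against 89.3 FPKM (0 to 178) and 24.6 FPKM (3.58 to 76.3) in WT. Neither was called, with q = 0.565 and q = 0.326 in the authors' deposited table, and the WT bounds are wide. AT3G22240 went the other way and was called higher, with 168 FPKM (78.4 to 181) in acc1-5 and 86.7 FPKM (39.9 to 96.1) in WT. The nearest gene on the other side of PCC1, AT3G22230, was not called and had 313 FPKM in acc1-5 and 312 FPKM in WT.

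**Figure D3:**
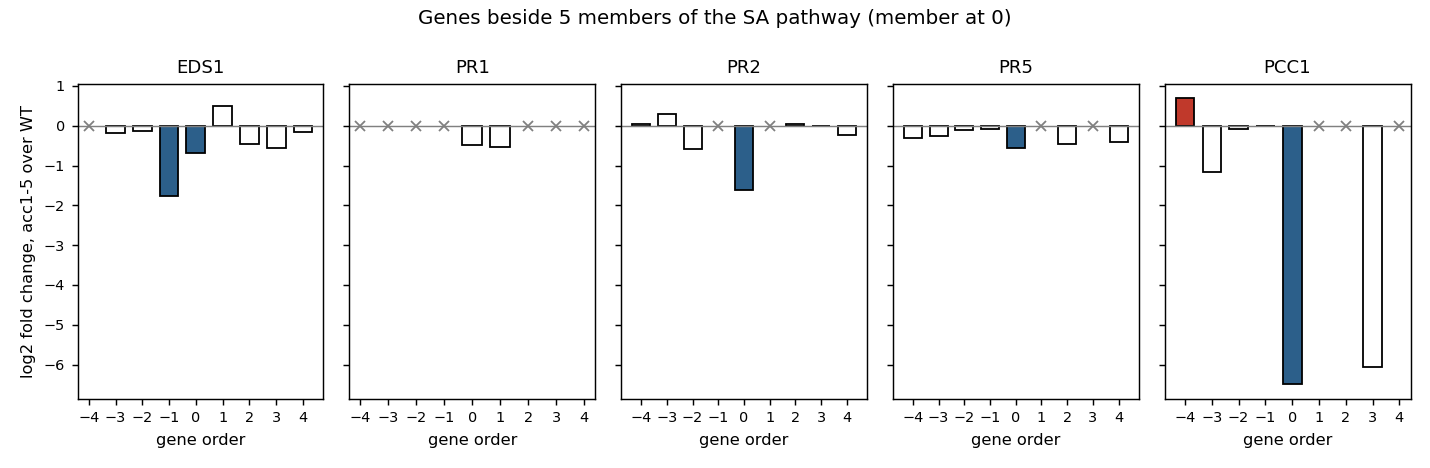
Log2 fold change of acc1-5 over WT for EDS1, PR1, PR2, PR5 and PCC1 (at 0) and the 4 genes on each side in the order of the chromosome; blue bars were called lower, red bars higher, open bars were not called, and crosses were not tested. Of the 8 genes beside each member, 1 was called lower at EDS1 (AT3G48080), 1 higher at PCC1 (AT3G22200) and none at PR1, PR2 and PR5. Of each 8, 7 were tested at EDS1, 1 at PR1, 6 at PR2, 6 at PR5 and 5 at PCC1. The call of AT3G48080 may not be separate from that of EDS1. The shares over all tested genes were 9.04% lower and 10.9% higher.

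Wider gene lists of the pathway, also written with earlier results of these data known, were read in the same way. The 7 lists hold 74 genes beside the 10 members, of which 71 were tested, 17 were called lower and 10 higher, and their median log2 fold change was -0.24. Over all tested genes 9.04% were called lower and 10.9% higher, with a median of -0.01, so 10 of 71 called higher is near the share over all genes.

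**Figure D4:**
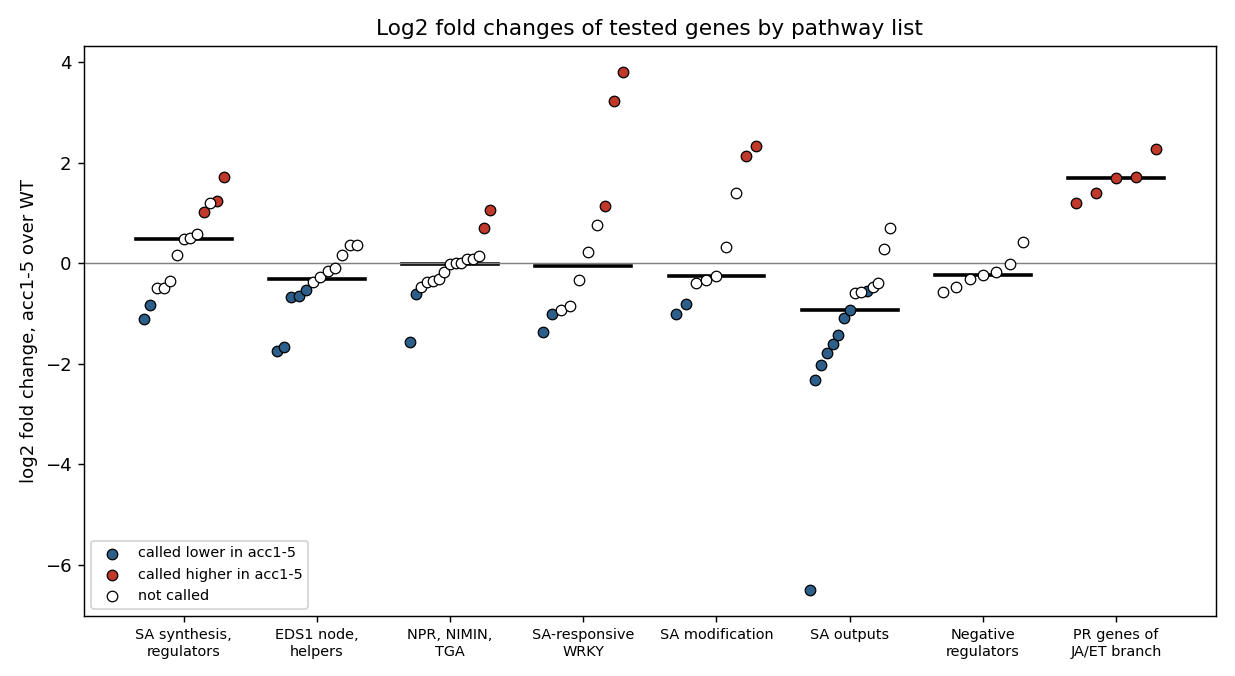
Log2 fold change of acc1-5 over WT for the tested genes of each list (points, sorted by value), filled where called lower (blue) or higher (red); black lines are list medians. The output list has 9 genes called lower and 0 higher, the PR genes of the jasmonate and ethylene branch have 5 of 5 called higher, and the synthesis and WRKY lists have calls in both directions.

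In the output list, genes beyond the members also had calls in the lower direction alone. The WRKY factors, read below with 2 called lower and 3 higher, are not in this list. NIMIN1 is also outside it and is read with the NPR proteins. Of 16 genes in the output list 15 were tested, 9 were called lower and 0 higher, beside 9.04% lower and 10.9% higher over all tested genes. At an unadjusted p under 0.05 in the authors' test, 12 were lower and 1 higher, beside 2992 and 3223 of 20509 tested genes. The median log2 fold change was -0.94. Without the members, 6 of 11 tested were lower and the median was again -0.94. ACD6, a membrane protein with ankyrin repeats that promotes salicylic acid signalling, had 17.0 FPKM (11.4 to 22.7) in acc1-5, against 85.9 FPKM (58.1 to 114) in WT. AED1, an EDS1-dependent protease of the apoplast, had 6.76 FPKM (4.0 to 9.52) in acc1-5, against 27.5 FPKM (18.2 to 36.6) in WT. For both genes the bounds of the genotypes do not overlap. LURP1 and the wall-associated kinase gene WAK1, named after their values were seen, were also called lower, at 87.4 and 49.4 FPKM in acc1-5, against 236 and 105 FPKM in WT. The glutaredoxin genes GRX480 and GRXS13, also named after their values were seen and not called, had positive log2 fold changes of 0.71 and 0.29.

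Among 13 tested genes of salicylic acid synthesis and its regulators, 2 were called lower and 3 higher, and 8 were not called. The median log2 fold change was 0.48, with 8 genes above 0 and 5 below. Those above 0 include PAL1 (1.72), PAL4 (1.25), PAL2 (0.50) and PAL3 (0.58), the last 2 named after their values were seen. A median without the PAL genes was not computed, so 0.48 does not describe the other genes of the list. Over all tested genes 9.04% were called lower and 10.9% higher. The lower ones were the transcription factor genes CBP60g and SARD1, which activate ICS1. CBP60g had 4.96 FPKM (2.88 to 7.03) in acc1-5, against 10.7 FPKM (6.88 to 14.6) in WT, and SARD1 had 13.3 FPKM (8.42 to 18.1) in acc1-5, against 23.7 FPKM (15.5 to 31.5) in WT. The higher ones were PAL1 and PAL4, phenylalanine ammonia-lyases that feed the phenylpropanoid pathway as a whole, and EPS1, which acts in the isochorismate route after ICS1. PAL1 had 156 FPKM (96.2 to 216) in acc1-5, against 47.3 FPKM (32.4 to 62.2) in WT. PAL4 was 2.37-fold and EPS1 2.02-fold higher in acc1-5. ICS2, the minor isochorismate synthase gene, had 2.14 FPKM (0.993 to 3.28) in acc1-5 and 1.91 FPKM (0.851 to 2.97) in WT and was not called.

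In the list around EDS1, 5 of 12 tested genes were called lower and 0 higher, beside 9.04% lower and 10.9% higher over all tested genes. The counts were also 5 and 0 at an unadjusted p under 0.05 in the authors' test, beside 2992 and 3223 of 20509 tested genes. The median log2 fold change was -0.32. The calls include EDS1, itself a member, and AT3G48080. Since the division of reads between EDS1 and its copy is uncertain, these may not be separate calls. Beside EDS1 and AT3G48080, the list included NDR1, a membrane protein needed by a class of immune receptors. NDR1 had 7.74 FPKM (3.76 to 11.4) in acc1-5, against 24.4 FPKM (13.5 to 32.7) in WT, with bounds that do not overlap. The 2 other calls, AT5G66900 and ADR1-L1, were named after their values were seen and had log2 fold changes of -0.66 and -0.54.

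Of 15 tested genes of NPR proteins, NIMIN proteins and TGA factors, 2 were called lower and 2 higher, and the median log2 fold change was -0.01. These shares are near the 9.04% lower and 10.9% higher over all tested genes, so the counts show nothing about the list. NPR4, a salicylic acid receptor that represses targets, had 16.8 FPKM (10.9 to 22.7) in acc1-5 and 25.8 FPKM (17.0 to 34.4) in WT and was called lower beside NIMIN1. TGA7 and TGA1 were called higher, at 41.0 FPKM (27.2 to 54.7) and 30.9 FPKM (19.8 to 42) in acc1-5, against 19.6 FPKM (13.0 to 26.3) and 18.9 FPKM (11.7 to 26.2) in WT. Not called were NPR3, with 28.3 FPKM in acc1-5 and 36.5 FPKM in WT, NIMIN2, with 21.5 FPKM in acc1-5 and 24.4 FPKM in WT, and NIMIN3, with 44.5 FPKM in acc1-5 and 61.6 FPKM in WT. AT4G26120, also uncalled, had 4.43 FPKM in acc1-5 and 4.16 FPKM in WT.

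Of 10 tested WRKY factors that respond to salicylic acid, 2 were called lower and 3 higher, beside 9.04% lower and 10.9% higher over all tested genes, and the median log2 fold change was -0.05. WRKY70, a factor that promotes salicylic acid responses and restrains jasmonate responses, had 85.03 FPKM (52.0 to 112) in acc1-5, against 219 FPKM (133 to 300.4) in WT, with bounds that do not overlap. Its close relative WRKY54 had 6.14 FPKM (3.32 to 8.95) in acc1-5 and 12.4 FPKM (7.32 to 17.4) in WT. The 3 genes called higher had low levels in WT. WRKY62 had 3.67 FPKM (1.58 to 5.76) in acc1-5 and 0.262 FPKM (0.0464 to 0.511) in WT, and WRKY59 had 2.86 FPKM (0.819 to 4.84) in acc1-5 and 0.306 FPKM (0 to 0.595) in WT. WRKY51 was 2.21-fold higher in acc1-5.

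Of 9 tested genes that modify salicylic acid, 2 were called lower and 2 higher, beside 9.04% lower and 10.9% higher over all tested genes, with a median log2 fold change of -0.24. DMR6, a hydroxylase that removes the hormone, had 37.7 FPKM (24.2 to 50.4) in acc1-5 and 76.4 FPKM (49.2 to 103) in WT, and GH3.5, which joins amino acids to auxin and salicylic acid, had 31.0 FPKM (21.2 to 40.8) in acc1-5 and 54.4 FPKM (36.7 to 72.0) in WT. MES1, an esterase that frees salicylic acid from its methyl ester, was 5.03-fold higher in acc1-5, and UGT76B1, a glucosyltransferase of salicylic acid and isoleucic acid, was 4.37-fold higher. Among 7 negative regulators of this branch of immunity the authors' Cuffdiff test called 0, beside 19.9% of all tested genes in either direction. At an unadjusted p under 0.05 in that test, 2 were lower and 1 higher, beside 2992 and 3223 of 20509 tested genes. With 7 genes these counts show nothing about the list, whose median log2 fold change was -0.24.

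The 5 PR genes of the jasmonate and ethylene branch were all called higher, beside 10.9% of all tested genes, and their median log2 fold change was 1.70. PR3, a basic chitinase, had 224 FPKM (144 to 305) in acc1-5, against 46.7 FPKM (32.0 to 61.4) in WT. PR4, a hevein-like protein, had 2132 FPKM (962 to 3266) in acc1-5, against 657 FPKM (348 to 891) in WT. The defensin gene PDF1.2c had 214 FPKM (74.4 to 251) in acc1-5 and 65.3 FPKM (25.9 to 66.6) in WT, and its near-identical copies make single levels uncertain. PDF1.2 and PDF1.2b, named after their values were seen, are also among the 5, so the calls are not all separate. PDF1.2b lay above its own bounds, at 195 FPKM (39.2 to 115) in acc1-5 and 74.0 FPKM (14.7 to 45.5) in WT. PDF1.2 did so in WT alone, at 159 FPKM (64.0 to 151).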

How the data were processed

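The authors' deposited tables give FPKM per transcript and genotype with confidence bounds, and per the file headers a log2 fold change, a p-value, a q-value and a test statistic (a score, not used) for acc1-5 over WT. The submitters' processing notes name Bowtie, TopHat (1.4.0), Cufflinks (2.1.1), Cuffdiff (2.1.1) and the build TAIR10. The sources used here give neither the level of the bounds nor the way in which libraries were combined. Low FPKM values gave no whole reads (at most 21.6% within 5% of a step), so no count test was run.

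Log2 fold changes were taken from the FPKM values. The deposited log2 values differed from them by over 0.001 for 6 tested transcripts of 2 genes, none of them called or in a list used here. Starts in the table count from 0 and are given here from 1. Of 42818 transcripts 25307 were tested. Calls use the authors' q-values over all tested transcripts, in place of limma, which needs values of single libraries. Python 3.11.15, pandas 2.3.3 and matplotlib 3.10.9 were used, and the adjustment of p-values was tested on simulated data.

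The 10 members and the gene lists were chosen with earlier results of these data known. Named are all members, their listed paralogs and adjacent genes, the 3 largest called changes in each direction of every other pathway list, and ACC1. Marker lists are given as counts and sums, with RBCS1A as an example. Other genes are said to be named after their values were seen. Of 124 list genes 115 carry the name used here in RefSeq's annotation (TAIR10.1) and 9 are given by locus. Sequences and the ChIP data were not used here.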

Additional observations from a re-analysis of the deposited data

How the results depend on the processing

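Of the members, 3 were called lower with q under 0.01 and 2 where the bounds must not overlap, in place of 5 in the main setting. A mean FPKM of at least 1, or p-values adjusted over main transcripts only, left 5 called lower, and 0 were called higher under these alternatives. The median log2 fold change of the output genes was -1.24 with 1 FPKM added, in place of -1.56. That of the upstream genes moved by less than 0.1 with another pseudocount, with summed transcripts or with centring, and no member changed sign under these settings. With q under 0.01, the list of NPR, NIMIN and TGA genes had 0 called lower and 1 higher by the authors' Cuffdiff test, and the WRKY list had 1 called higher. The output list then had 8 called lower (9 in the main setting, PR5 lost), the EDS1 list 4 lower (ADR1-L1 lost) and the synthesis list 2 higher (EPS1 lost). The cause of these changes is the stricter threshold itself. With q under 0.01, 5.7% of all tested genes were called lower. The share called higher at that threshold was not computed, so the counts of higher calls have no reference. No paired analysis was possible because the tables hold 1 value per genotype, and for the same reason leaving out single libraries and limma were not run. Depth is unknown, and the width of the bounds limits the smaller differences.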

Other observations

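The 80 genes beside the members, 4 on each side of each of the 10, were read after the tables had been examined. Of these, 54 were tested, 5 were called lower and 4 higher. The counts are near the 9.04% lower and 10.9% higher over all tested genes, so they show nothing about the neighbours as a group. PR1 lay among genes that were hardly listed above 0, and 1 of its 8 neighbours was tested. The next gene after NIMIN1, AT1G02460, was called higher, with 3.93 FPKM (2.18 to 5.67) in acc1-5 and 0.908 FPKM (0.351 to 1.46) in WT. PCC1 and AT3G22235 summed over their transcripts had 2.17 FPKM in acc1-5 and 152 FPKM in WT.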
